A study of Rattus norvegicus with 8 samples.

Results

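Ptpn5 and 8 further phosphatase genes that act on MAP kinases were followed in rat ovary on 8 expression arrays, 4 labelled PMSG and 4 labelled control. The genes are Ptpn5, Ptpn7, Ptprr, Dusp1, Dusp4, Dusp5, Dusp6, Dusp10 and Dusp14, taken as every non-control probe that the array files name for one of them. They make up 9 of 26204 gene names and 11 of 30350 probes, with 2 probes each for Ptprr and Dusp14 and 1 probe for each of the other 7 genes. The set was chosen from results on the same contrast between the labels. Its differences between labels are therefore given as a description and carry no test. Counts and calls of these genes past a threshold, also under alternative processing, are descriptive too and are no evidence of a difference.

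The animals were immature female rats of unstated strain, and all 8 arrays hold whole ovary RNA of animals aged 28 days. Arrays labelled PMSG stand for rats given 50 IU of PMSG under the skin at 26 days, in an albumin phosphate buffer (0.2 ml). Arrays labelled control stand for rats given the same buffer alone, and ovaries of both were removed 48 h after the injection. The hormone, pregnant mare serum gonadotropin, acts mainly like follicle-stimulating hormone and in part like luteinising hormone. From each sample 500 ng of total RNA was primed with oligo-dT, labelled with Cy3 and hybridised alone to a 1-colour array of 60-base probes.

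MAP kinases are switched on by dual phosphorylation of a threonine and a tyrosine, and phosphatases switch them off. PTPN5 (also called STEP), PTPN7 (HePTP) and PTPRR form a family of tyrosine phosphatases that hold ERK and p38 through a kinase interaction motif, and phosphorylation of that motif by protein kinase A releases the kinase. The dual-specificity phosphatases remove both phosphates: DUSP1, DUSP4 and DUSP5 act in the nucleus, DUSP6 acts on ERK in the cytoplasm, DUSP10 acts mainly on p38 and JNK, and DUSP14 is a small member without a kinase-binding domain. In granulosa cells, the somatic cells of the follicle, gonadotropins act through cyclic AMP and protein kinase A, and ERK signalling is needed for ovulation. Several of these phosphatase genes are themselves induced by ERK, as part of its negative feedback.

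The probe sequences below carry the values that follow. They are shown for Ptpn5, which had the largest difference of the set, for Dusp6 and Dusp1, and for the 2 genes measured at 2 places of their transcript. Capitals mark a polyadenylation signal, AATAAA, where the probe holds one.
Ptpn5: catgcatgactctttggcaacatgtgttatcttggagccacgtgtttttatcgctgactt
Ptprr, brighter probe: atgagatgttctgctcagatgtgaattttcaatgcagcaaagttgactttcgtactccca
Ptprr, dimmer probe: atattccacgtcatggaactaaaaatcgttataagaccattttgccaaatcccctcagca
Dusp1: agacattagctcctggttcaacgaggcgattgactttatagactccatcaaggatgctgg
Dusp6: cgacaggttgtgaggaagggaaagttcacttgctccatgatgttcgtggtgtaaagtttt
Dusp14, brighter probe: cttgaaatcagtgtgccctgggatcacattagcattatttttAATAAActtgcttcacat
Dusp14, dimmer probe: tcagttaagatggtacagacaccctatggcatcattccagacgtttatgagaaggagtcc
On the build rn4, the file annotation places the Ptpn5 probe at chr1:97629287-97629346 on the minus strand. The Ptprr probes lie at chr7:55612864-55612923 and chr7:55570940-55575925 on the plus strand. The dimmer one spans 4986 bases of genome with 60 bases of probe, so it crosses at least 1 splice junction. The Dusp1 probe also crosses a junction, since it spans 320 bases at chr10:16944342-16944661. The Dusp6 probe lies at chr7:36897369-36897428. The Dusp14 probes lie at chr10:72335935-72335994 and chr10:72336549-72336608 on the minus strand, where they start at bases 1308 and 694 of the annotated transcript. The remaining probes lie at chr13:48105381-48105440 for Ptpn7, chr16:61109868-61109927 for Dusp4, chr1:259767436-259767495 for Dusp5 and chr13:100059143-100059202 for Dusp10. None of the 11 probes shared a run of 20 bases with a probe of another gene, on either strand. Whether a probe lies in coding sequence or in an untranslated part was not analysed here.

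Values below are log2 processed signal minus the 75th percentile of the same array, so a value of 0 is a probe at that percentile, and a log2 difference of 1 is 2-fold. That percentile corresponded to a signal of 769 to 1103, and 80.8% to 84.6% of probes were well above background on each array. With 4 arrays per label, their number limits the precision, and the labels do not state that each array is a separate animal, so p-values measure the spread between these samples. Genes known to respond to gonadotropins pointed opposite to their usual response: in arrays labelled PMSG, Lhcgr, Star and Cyp11a1 were lower by log2 differences of -1.93, -2.75 and -3.36, and Amh was higher by 3.03. The limma adjusted p-values of these 4 genes were 0.00114, 0.00541, 2.32e-04 and 2.61e-04 (Benjamini-Hochberg adjustment over 25303 probes). Each direction, also where a gene is said to have risen or fallen, is therefore by the label of the array. Whether the labels were exchanged was not tested, and an exchange would turn every direction given here. In whole ovary, fewer cells of a type and less RNA per cell cannot be told apart.

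All 9 genes were bright enough to be tested, with every representative probe well above background on all 8 arrays. In arrays labelled PMSG, 6 genes were lower and 3 were higher. A threshold of limma adjusted p under 0.05 was passed by 7 of the 9, of which 5 were lower and 2 higher, where 34.2% of all tested probes passed, 16.6% as lower and 17.6% as higher. Values of the labels did not overlap for 6 of the 9, beside 36.6% of all tested probes. At least 2-fold differences were found for 5 of the 9, beside 14.0% of all tested probes. Of these 5, 4 were lower and 1 was higher, beside 5.47% lower and 8.49% higher over all tested probes. Because the genes were picked on this contrast, nothing is read from these shares. The median log2 difference of the 9 genes was -0.52, and that of all tested probes was 0.11.

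**Figure D1:**
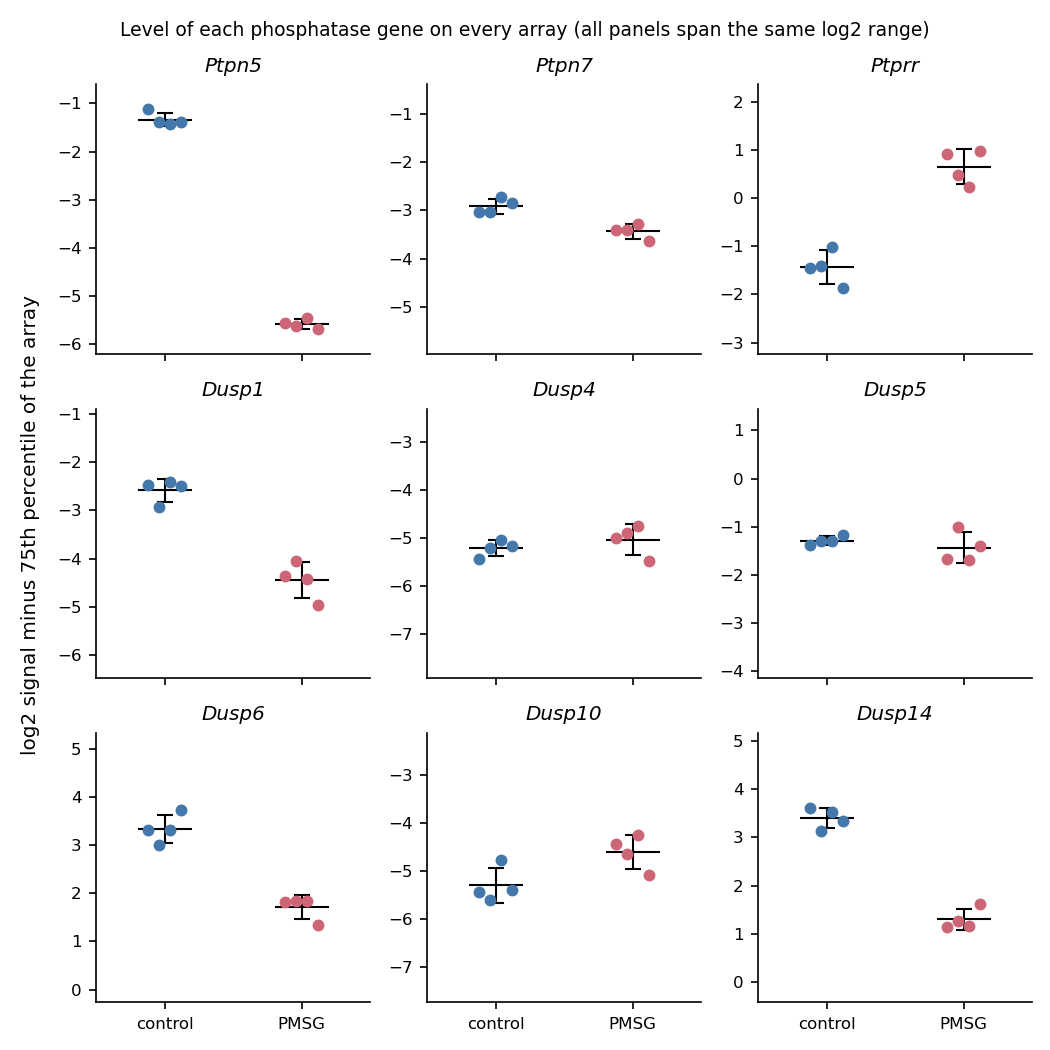
Log2 processed signal minus the array's 75th percentile (vertical axis) for the 9 phosphatase genes, 1 panel per gene, with 4 control-labelled and 4 PMSG-labelled arrays as points, and the mean of each label as a line with SD bars. The labels are apart for Ptpn5, Ptpn7, Ptprr, Dusp1, Dusp6 and Dusp14, and they overlap for Dusp4, Dusp5 and Dusp10.

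Ptpn5, encoding a phosphatase best known from neurons of the striatum, showed the largest difference of the 9 genes. In arrays labelled control 1 to 4 it stood at -1.12, -1.39, -1.43 and -1.40. In arrays labelled PMSG 1 to 4 it stood at -5.55, -5.63, -5.45 and -5.69. All PMSG values were thus far below all control values, and the 4 PMSG arrays lay close together. The means were -1.34 ± 0.14 (SD, n = 4) and -5.58 ± 0.10 (SD, n = 4), a log2 difference of -4.25 (SE 0.11), or 19.0-fold lower in arrays labelled PMSG. Before scaling, the processed signals were 479, 402, 371 and 419 in control arrays and 20.9, 20.7, 17.6 and 21.0 in PMSG arrays.

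The low Ptpn5 signal lay close to the floor of the arrays, which bears on the size of the fold. The dimmest spot that counted as well above background on each PMSG array had a signal of 9.89 to 13.7. Ptpn5 is printed as 10 spots on each array, which allows the measurement to be read within an array. In PMSG arrays 38 of 39 usable spots were well above background, with spot signals from 7.19 to 31.2. In control arrays all 39 usable spots were well above background, from 343 to 527. No single spot of the PMSG arrays reached the lowest spot of the control arrays. The spread between spots was wider at the low end, with a median SD of 0.39 log2 units per PMSG array and 0.06 per control array. The uncorrected spot signal was 52.8 to 58.2 in PMSG arrays and 403 to 514 in control arrays, over a local background of 19.5 to 21.0 in both. With a normexp background correction that adds an offset of 50, the log2 difference was -2.44, or 5.43-fold. The direction held under this correction, while the size depends on how the background is treated.

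**Figure D2:**
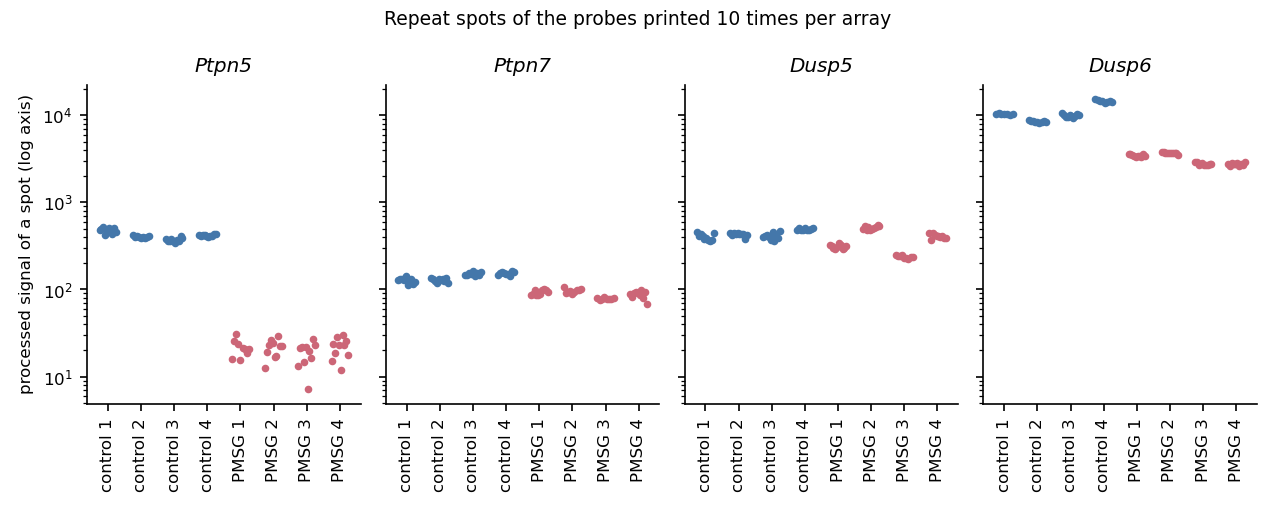
Processed signal of every usable spot (vertical log10 axis) of the probes printed as 10 spots per array, Ptpn5, Ptpn7, Dusp5 and Dusp6, by array along the horizontal axis. The 39 Ptpn5 spots of PMSG-labelled arrays lie between 7.19 and 31.2, all below the 39 spots of control-labelled arrays at 343 to 527.

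Of the phosphatases most related to PTPN5, Ptprr was higher in arrays labelled PMSG and Ptpn7 was lower by a small amount. Ptprr encodes a receptor-type phosphatase with the same kinase interaction motif, found in neurons and endocrine cells. Its brighter probe gave -1.45, -1.40, -1.01 and -1.86 in control arrays 1 to 4, and 0.92, 0.47, 0.22 and 0.98 in PMSG arrays 1 to 4. All 4 PMSG values were higher, with no overlap. The means were -1.43 ± 0.35 and 0.65 ± 0.36 (SD, n = 4 each), a log2 difference of 2.08 (SE 0.23), or 4.22-fold higher. The dimmer probe, upstream in the transcript and across a junction, gave -6.40, -6.85, -5.75 and -6.99 in control arrays and -4.66, -4.72, -4.90 and -4.25 in PMSG arrays. It was well above background on 1 of 4 control arrays and on 4 of 4 PMSG arrays, and its log2 difference was 1.87 (SE 0.28). Both places of the Ptprr transcript therefore gave a higher signal in arrays labelled PMSG. On control arrays 1, 2 and 4 the dimmer probe lay below the dimmest well-above-background spots, at -6.37, -6.51 and -6.65. The size of the dimmer probe's difference is therefore uncertain.

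Ptpn7 encodes the family member of blood cells, where it restrains ERK in lymphocytes. It gave -3.04, -3.04, -2.73 and -2.85 in control arrays and -3.40, -3.41, -3.29 and -3.64 in PMSG arrays. The labels did not overlap, but the gap was small, with a log2 difference of -0.52 (SE 0.12), or 1.44-fold lower. This probe too is printed as 10 spots, with a median SD between spots of 0.07 in control arrays and 0.09 in PMSG arrays. Under the normexp correction the difference was -0.30 and no longer past the threshold. Of 6 tested macrophage and pan-leukocyte genes, 4 passed as higher in PMSG arrays, Ptprc, Laptm5, Aif1 and Cd68, while Csf1r (0.29) and Coro1a (-0.06) did not pass. The Cd68 call was lost under 9 of 17 alternatives, among them each fit without control array 1, 2 or 4 or PMSG array 1, 2 or 3. The other Ptprc probe had 0.61 and did not pass (limma adjusted p = 0.273). The 6 genes had a mean level of -0.12 to 0.24 in control arrays and 0.44 to 0.54 in PMSG arrays. Of 8 lymphocyte markers 6 were tested and 2 of them, among them Cd3g, passed as higher, Cd79a had -0.19 without passing, and Cd2 and Ms4a1 were well above background on no array. The mean level of the 8 was -6.31 to -5.46 in control arrays and -5.43 to -4.91 in PMSG arrays. Among neuron markers 1 of 3 tested genes passed, Tubb3 (log2 difference -1.68, limma adjusted p = 4.98e-04), while Snap25 (-0.77) and Nefl (0.61) did not pass. The defining gene Syt1 was well above background on no array. The list's mean level was -4.74 to -4.42 in control arrays and -5.52 to -4.68 in PMSG arrays. The part of these cells in the values of Ptpn5, Ptprr and Ptpn7 was not tested.

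Among the dual-specificity phosphatases, Dusp6, Dusp1 and Dusp14 were lower in arrays labelled PMSG. Dusp6 encodes the cytoplasmic phosphatase that is selective for ERK. It gave 3.31, 3.00, 3.31 and 3.72 in control arrays and 1.81, 1.85, 1.85 and 1.35 in PMSG arrays. No PMSG value reached a control value, and the means were 3.34 ± 0.29 and 1.71 ± 0.24 (SD, n = 4 each). The log2 difference was -1.62 (SE 0.18), or 3.08-fold lower. The 10 spots of this probe agree closely within an array, with a median SD of 0.04 under both labels.

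Dusp1 encodes the nuclear phosphatase that acts on p38, JNK and ERK and that many stimuli induce within minutes to hours. It gave -2.48, -2.94, -2.42 and -2.50 in control arrays and -4.36, -4.05, -4.42 and -4.96 in PMSG arrays. The labels were apart by more than a log2 unit, with means of -2.58 ± 0.24 and -4.44 ± 0.38 (SD, n = 4 each). The log2 difference was -1.86 (SE 0.21), or 3.63-fold lower, and -1.04 under the normexp correction.

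Dusp14 encodes a small phosphatase known from T cell signalling. Its brighter probe gave 3.61, 3.14, 3.52 and 3.35 in control arrays and 1.14, 1.27, 1.17 and 1.61 in PMSG arrays. The means were 3.41 ± 0.21 and 1.30 ± 0.22 (SD, n = 4 each), a log2 difference of -2.11 (SE 0.15), or 4.31-fold lower. The dimmer probe gave 0.20, -0.32, 0.02 and -0.01 in control arrays and -2.71, -2.43, -2.71 and -2.02 in PMSG arrays, a log2 difference of -2.44 (SE 0.18), or 5.42-fold lower. Both probes put every PMSG array below every control array at separate places of the transcript.

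Dusp5, Dusp4 and Dusp10 showed small differences or none beyond the spread. Dusp5, a nuclear phosphatase selective for ERK, gave -1.38, -1.30, -1.30 and -1.16 in control arrays and -1.66, -1.00, -1.69 and -1.40 in PMSG arrays. The labels overlapped and the log2 difference was -0.15 (SE 0.16). Dusp4, which acts on ERK, JNK and p38 in the nucleus, gave -5.43, -5.20, -5.04 and -5.16 in control arrays and -5.00, -4.90, -4.74 and -5.48 in PMSG arrays. Its log2 difference of 0.17 (SE 0.17) lay within the spread and turned to -0.10 under quantile normalization.

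Dusp10 gave -5.43, -5.60, -4.77 and -5.39 in control arrays and -4.43, -4.65, -4.25 and -5.08 in PMSG arrays. Control array 3 and PMSG array 4 overlapped, and the log2 difference was 0.70 (SE 0.23), or 1.62-fold higher. Dusp10 passed the threshold with all arrays and not under 10 of 17 alternatives, among them each fit without control array 1, 2 or 4 or PMSG array 1, 2 or 3. Spot signals of Dusp4 and Dusp10 ran from 14.6 to 50.3 over both labels, near the floor of the arrays.

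The spread within a label differed among the 9 genes and is given as a description, since it enters the contrast on which they were chosen. The median SD over all tested probes was 0.16 in control arrays and 0.27 in PMSG arrays. Ptpn5, at 0.14 and 0.10, lay at the 45th and the 10th percentile of those spreads. Dusp5 went the other way, with 0.09 in control arrays and 0.32 in PMSG arrays. Values of Ptpn5 and Dusp5 average 9 or 10 spots per array, which lowers spot noise, and Ptpn5 in PMSG arrays lay near the floor. The percentiles of Ptpn5 are therefore not on equal terms with those of probes printed as fewer spots. The SD was larger in PMSG arrays for 5 of the 9 genes and for 2 of the 9 when PMSG array 4 was left out.

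Genes with a profile most like that of Ptpn5 over the 8 arrays were sought among 14447 genes. Likeness was the root mean square distance in log2 after centring each profile on its own mean. For Ptpn5 this distance rests mostly on the difference between labels, on which the set was chosen, so the genes found are a description. The nearest was Hp, encoding the haemoglobin-binding plasma protein haptoglobin, at a distance of 0.26 and with a log2 difference of -3.96. Next came Vtcn1, an inhibitor of T cell activation, at 0.33 and -4.45, and Osgin1, an oxidative stress-induced gene, at 0.33 and -3.67. Hsd17b7, an enzyme of oestradiol and cholesterol synthesis, was at 0.33 and -3.77. Vom2r53, named for a vomeronasal receptor, was at 0.34; it was well above background on 0 of 4 PMSG arrays and at least 4.18-fold higher in control arrays. Such bounds set the mean of the bright label against a floor for the dim label, taken on each array as its dimmest spot that counted as well above background, or the probe's own value where that was larger. Under the normexp correction 0 of these 5 genes remained among the nearest 5.

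The other genes of the pathway were read from lists that cover phosphatases, kinases, adaptors and ERK target genes. The lists were chosen with earlier results of these data known, so their counts and shares are a description. Each listed gene counts by its brightest probe, whereas shares of all tested probes count every probe. Of 99 listed genes 97 had a probe and 93 were tested, and 44 of the 93 (47.3%) passed, beside 34.2% of all tested probes. The 44 comprised 9 higher genes (9.68% of the 93) and 35 lower ones (37.6%), where all tested probes gave 17.6% and 16.6%. The median log2 difference of the 93 was -0.22, against 0.11 over all tested probes. Median centring, which brings that overall median to -0.05 and the share of higher probes among all that passed from 51.4% to 34.5%, gave 6 higher and 39 lower. Differences of single genes below are limma values with Benjamini-Hochberg adjusted p.

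None of the 5 other typical MAP kinase phosphatases passed. Dusp2, Dusp8 and Dusp9 had log2 differences of 0.48, 0.24 and 0.66, and Dusp7 and Dusp16 had -0.35 and -0.32, with limma adjusted p from 0.110 to 0.265. The atypical dual-specificity phosphatases, which lack a kinase-binding domain, moved in both directions: 3 of 12 tested genes rose, 5 fell and 4 did not pass. Dusp26, known from brain and neuroendocrine tissue, rose by 2.25 (SE 0.29, limma adjusted p = 8.37e-04). Dusp27, a muscle gene with an inactive phosphatase domain, rose by 1.85 (limma adjusted p = 0.00496), and Dusp13 rose by 1.24 (limma adjusted p = 0.00366). Dusp22, an activator of JNK signalling, fell by 1.44 (SE 0.14, limma adjusted p = 2.46e-04). Dusp15 fell by 1.46 (limma adjusted p = 0.0159) and Styx, a pseudophosphatase that binds ERK, fell by 0.71 (limma adjusted p = 0.0156).

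Among the MAP kinases themselves 5 of 12 tested genes passed, 2 higher and 3 lower, with a median log2 difference of -0.00. Mapk3, encoding ERK1, had 0.13 (limma adjusted p = 0.564). Mapk9, encoding JNK2, fell by 1.13 (limma adjusted p = 6.88e-04) and Mapk6, encoding the atypical kinase ERK3, fell by 0.77 (limma adjusted p = 0.00132). Mapk15, another atypical kinase, was well above background on 0 of 4 control arrays and 4 of 4 PMSG arrays. It was at least 2.70-fold higher in PMSG arrays. Mapk15 met the filter for testing only through the label where it was high, so its p-value is not given. Mapk15 was also past the threshold with no filter on dim probes, and the stricter filter left it untested. Mapk4 rose by 0.47 (limma adjusted p = 0.0271), a call lost under 8 of 17 alternatives, among them each fit without control array 2, 3 or 4 or PMSG array 1 or 3. Its other probe also had 0.47 and did not pass (limma adjusted p = 0.514). Mapk14, encoding p38 alpha, had -0.13 (limma adjusted p = 0.325). For Mapk11 the brighter probe had 0.27 and the other -0.57 (limma adjusted p = 0.0459), so the 2 probes disagree.

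Upstream kinases and adaptors passed in 10 of 19 cases, 2 as higher and 8 as lower. Map2k1, encoding the ERK kinase MEK1, fell by 0.97 (SE 0.12, limma adjusted p = 7.44e-04). Nras, a RAS GTPase, fell by 0.90 (limma adjusted p = 0.00147), and Ksr1, a scaffold for RAF, MEK and ERK, fell by 0.82 (limma adjusted p = 8.74e-04). The other Ksr1 probe had -0.35 and did not pass (limma adjusted p = 0.335). Mos, the oocyte kinase that drives ERK activity during meiosis, rose by 1.72 (SE 0.19, limma adjusted p = 4.68e-04). All 6 oocyte markers passed as higher as well, with a mean level of -1.89 to -1.10 in control arrays and -0.22 to 0.88 in PMSG arrays, and their part in the value of Mos was not tested. Sos2 rose by 0.37 (limma adjusted p = 0.0469) with overlapping labels, and its other probe had -0.16. The Sos2 call was lost under 11 of 17 alternatives, among them every fit that left out 1 array except the one without PMSG array 3.

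Kinases that MAP kinases activate passed only as lower, in 5 of 10 tested genes, with a median log2 difference of -0.21. Mapkapk3, a kinase activated by p38, fell by 0.85 (limma adjusted p = 0.00162). Rps6ka1, the ERK-activated kinase RSK1, fell by 0.66 (limma adjusted p = 0.00231). Mknk1 fell by 0.41 (limma adjusted p = 0.0194), a call lost in each fit without control array 1, 2 or 4.

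ERK-induced genes and feedback inhibitors passed only as lower, in 6 of 16 genes, with a median of -0.33. Egr1, an immediate early transcription factor, fell by 1.02 (SE 0.24, limma adjusted p = 0.0125), and its other probe had a log2 difference of -1.10. Etv4 was lower with a measured log2 difference of -1.55, but it was well above background on 2 of 4 PMSG arrays. Etv4 met the filter for testing only with the arrays of the label where it was high, so its p-value is not given. Its PMSG mean of -6.87 lay below the dimmest well-above-background spots of those arrays, at -6.70 to -6.16, so the size of its difference is uncertain. Under the normexp correction Etv4 had -0.21 and did not pass. Etv5, of the same ETS family, fell by 0.74 (limma adjusted p = 0.00251). The other 10 genes did not pass, among them Fos at -0.15 and Spry1 at -0.00. For Spry4, a feedback inhibitor of receptor signalling, the brighter probe had 0.13 and the other fell by 1.28 (limma adjusted p = 0.00482).

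Known substrates of PTPN5 outside the MAP kinases passed in 2 of 5 cases. The kinase gene Fyn fell by 0.38 (limma adjusted p = 0.0223), a call lost without control array 2 or 4 or PMSG array 1. The glutamate receptor gene Gria2 was higher with a measured log2 difference of 1.48. It was well above background on 1 of 4 control and 3 of 4 PMSG arrays. Gria2 met the filter for testing only with the arrays of the label where it was high, so its p-value is not given. Its control mean of -7.15 lay below the dimmest well-above-background spots of those arrays, at -6.65 to -6.37, so the size of its difference is uncertain. Its call was lost with the deposited values and under quantile normalization. Ptk2b had -0.45 for the brighter probe (limma adjusted p = 0.0790) and -1.96 for the other (limma adjusted p = 9.91e-05).

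Other cytosolic tyrosine phosphatases passed in 8 of 14 tested genes, 1 as higher and 7 as lower. Ptpn22, a phosphatase of lymphocytes, fell by 1.78 (SE 0.19, limma adjusted p = 3.93e-04). Ptpn9 fell by 0.98 (limma adjusted p = 6.70e-04). Ptpn3 fell by 0.67 (limma adjusted p = 0.0179), a call lost without control array 4 and in the fit with replicate number as a block. The other Ptpn3 probe had -0.44 and did not pass (limma adjusted p = 0.266). Ptpn13 rose by 0.51 (limma adjusted p = 0.00978) and was not past the threshold under median centring. Its other probe had 0.22 and did not pass (limma adjusted p = 0.228).

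**Figure D3:**
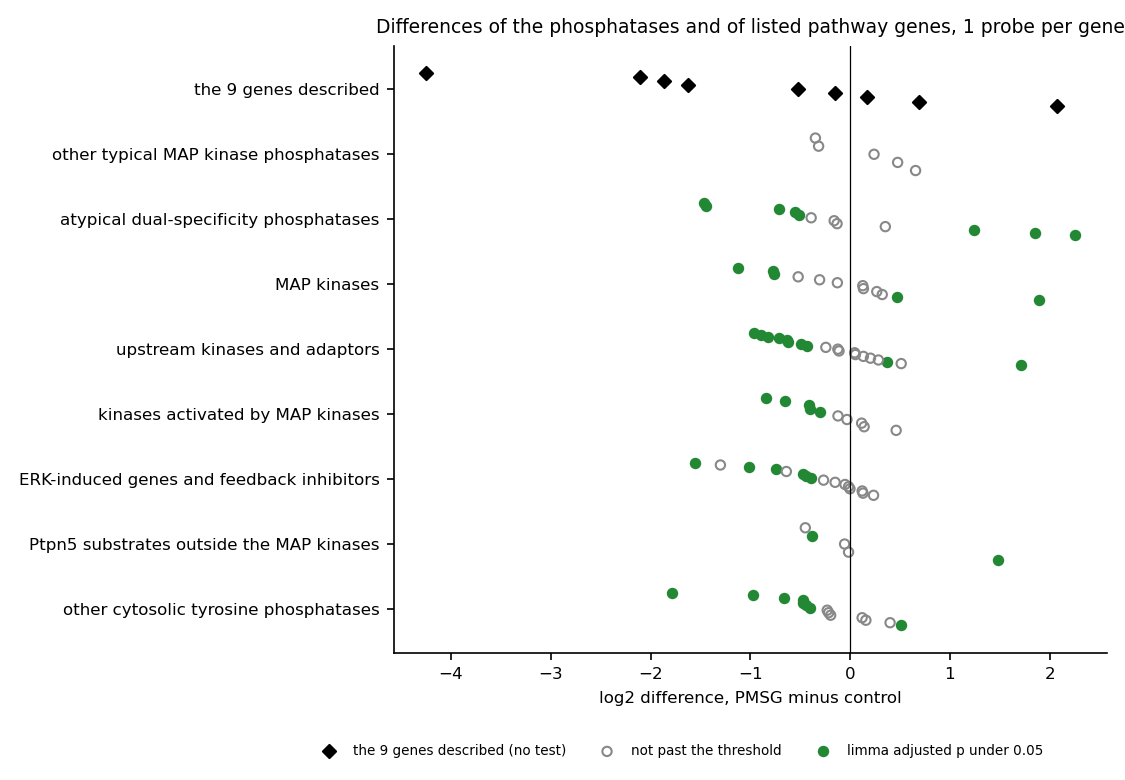
Log2 difference, PMSG-labelled minus control-labelled arrays (horizontal axis), of the 9 phosphatase genes (black diamonds, untested) and of the tested pathway genes by list, 1 probe per gene, with filled points for limma adjusted p under 0.05. Filled points lie left of 0 for 35 genes and right of 0 for 9, and none of the 5 other typical MAP kinase phosphatases is filled.

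Promoter sequence from RefSeq (assembly GRCr8), 300 bases around an annotated start of transcription, most of them before it, was found for 8 of the 9 genes, in 10 windows. Motifs of factors that act downstream of cyclic AMP and ERK were searched on both strands. The cyclic AMP response element TGACGTCA was found in Dusp1 alone of the 8 genes and in 1.83% of 33469 rat promoters. Its short form TGACG, which the full element contains, was found in Dusp1, Dusp5 and Dusp14 and in 21.2% of all promoters. The CArG box, to which serum response factor binds, was found in Dusp5 alone of the 8 and in 1.64% of all promoters. The AP-1 motif TGANTCA was found in 1 window of Dusp14 (7.33% of all promoters), and the EGR motif GCGGGGGCG in none of the 8 genes (2.73%). The windows of Dusp1 (chr10:17184603-17184902, plus strand) and Dusp5 (chr1:262543524-262543823, plus strand) are printed because they hold the rarest motifs and belong to a gene that was lower and one that overlapped between labels. That of Ptpn5 (chr1:106816085-106816384, minus strand), with none of these motifs, is shown beside them. Capitals mark the motifs.
Dusp1: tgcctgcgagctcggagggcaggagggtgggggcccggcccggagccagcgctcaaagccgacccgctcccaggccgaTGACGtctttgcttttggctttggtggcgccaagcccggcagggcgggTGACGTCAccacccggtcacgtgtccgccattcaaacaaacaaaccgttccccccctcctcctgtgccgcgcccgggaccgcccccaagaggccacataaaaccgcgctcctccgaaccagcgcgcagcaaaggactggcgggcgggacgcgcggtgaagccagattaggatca
Dusp5: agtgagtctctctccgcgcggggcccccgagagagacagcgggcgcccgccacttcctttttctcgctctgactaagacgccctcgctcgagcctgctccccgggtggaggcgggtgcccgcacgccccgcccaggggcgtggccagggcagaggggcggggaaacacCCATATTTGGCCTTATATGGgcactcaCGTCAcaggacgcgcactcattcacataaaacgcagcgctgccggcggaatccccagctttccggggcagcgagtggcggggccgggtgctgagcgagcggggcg
Ptpn5: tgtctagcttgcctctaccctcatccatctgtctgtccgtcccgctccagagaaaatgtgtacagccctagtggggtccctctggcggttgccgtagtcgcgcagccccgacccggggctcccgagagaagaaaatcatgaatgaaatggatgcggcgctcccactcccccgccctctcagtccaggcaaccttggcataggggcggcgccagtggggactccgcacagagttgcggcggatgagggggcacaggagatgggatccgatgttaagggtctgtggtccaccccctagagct
In Dusp1 the full element begins 124 bases before the start, and another TGACG begins 172 bases before it. In Dusp5 adjoining CArG boxes begin 82 and 72 bases before the start, and a reverse-strand TGACG begins 55 bases before it. These matches describe letters in the window, and no binding was measured.

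Across 17 alternative ways of processing, 8 of the 9 genes kept the direction of their difference, and Dusp4 was the exception. Ptpn5 ranged from -4.42 to -2.44, Dusp1 from -2.05 to -1.04, Dusp6 from -1.79 to -1.49 and Ptpn7 from -0.69 to -0.30. With its dimmer probe counted as a further alternative, Ptprr ranged from 1.87 to 2.22 and Dusp14 from -2.44 to -2.01. Dusp4 ranged from -0.10 to 0.32, Dusp5 from -0.32 to -0.07 and Dusp10 from 0.30 to 0.87. The background correction moved Ptpn5, Dusp1, Dusp10 and Ptpn7 most, while fits without 1 array kept Ptpn5 close to its reported value.

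**Figure D4:**
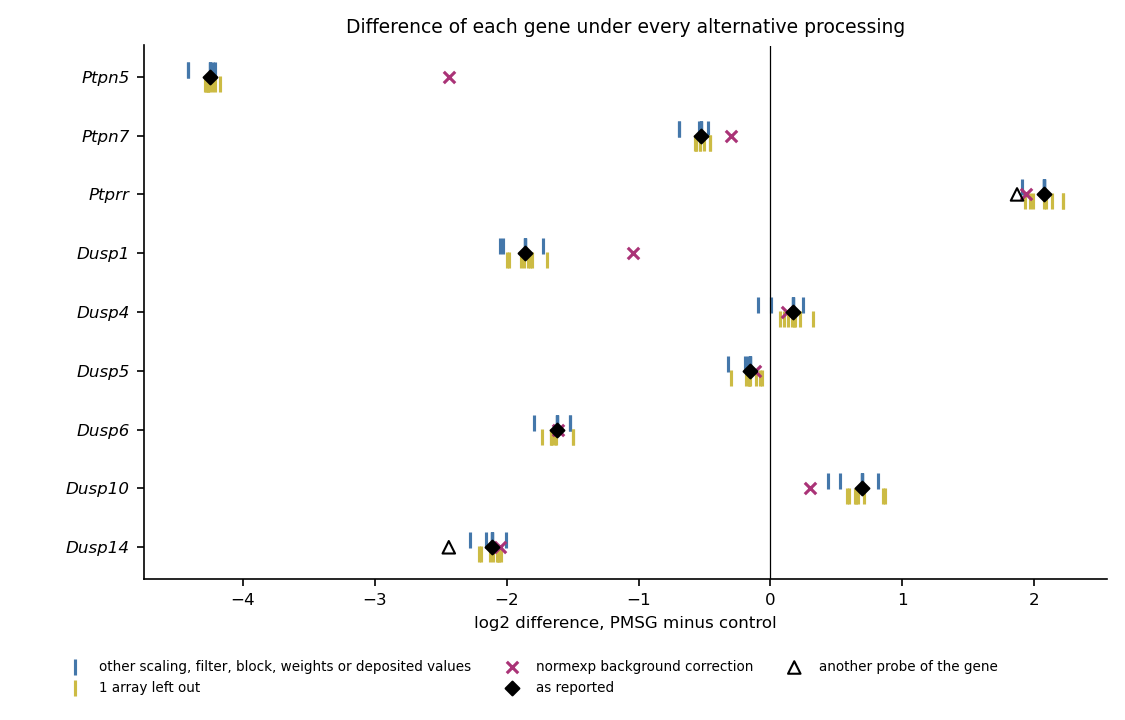
Log2 difference, PMSG-labelled minus control-labelled arrays (horizontal axis), of each of the 9 genes as reported (diamonds), under alternative processing and with 1 array left out (ticks), under normexp background correction (crosses) and for another probe of the gene (triangles). Ptpn5 stays left of -2 throughout, and Dusp4 alone has values on both sides of 0.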

How the data were processed

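Ovary RNA was measured on 8 single-colour Agilent arrays, 4 per label, all on 1 slide and 1 scan. Per the file headers, the authors obtained spot intensity values from Agilent Feature Extraction 11.5.1.1; the headers also name the build rn4 (assembly 3.4). A further deposited table holds log2 values, which by comparison with the scanner files are log2 intensity minus each array's 75th percentile (Pearson r at least 0.998 with the same array; no centring of probes; column medians from -3.21 to -2.82). Columns not used numbered 0.

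From the deposited processed signals, control and outlier spots were left out, log2 values of a probe's spots were averaged and the array's 75th percentile was subtracted. Probes lacking a usable spot on any 1 array, 17 in all, were removed. A probe was tested where at least 0.5 of its spots were well above background on at least 4 arrays. No spot was saturated. The comparison of labels used lmFit and eBayes of limma 3.58.1 (R 4.3.3) without covariates; p-values were adjusted by Benjamini-Hochberg across the 25303 tested probes. A gene measured by several probes was represented by the brightest. The procedure was tested on simulated data of 25303 probes, with 200 of them changed and the same SD under both labels. It found 56% of log2 changes of 1 and 83% of log2 changes of 2, with 10 false calls. In the data 34.2% of probes passed, and the median SD was 0.16 in control arrays and 0.27 in PMSG arrays. The simulated rates therefore do not describe the comparison of labels made here.

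The genes and lists were chosen with earlier results of these data known. Genes named are the 9 phosphatases, the 5 nearest to Ptpn5, up to 3 per direction and list with the largest difference past the threshold, hormone-responsive genes and cell markers; other list genes were picked after their values were seen, as examples of no call or of disagreeing probes. Granulosa markers passed as higher in 2 of 5 tested genes, theca markers as higher in 1 and lower in 1 of 3, and smooth muscle and fibroblast markers as higher in 2 of 5. Oviduct epithelium markers passed as higher in 4 of 5 and endothelial markers as lower in 4 of 6. Dusp28, Mapk7, Cyp19a1 and Rbfox3 were not analysed here. Some listed genes that enter the counts are not reported here by name. Shared replicate numbers showed no clear pairing of the arrays: deviations of same-numbered arrays correlated at -0.02 to 0.18. The labels do not state a pairing, and with 4 arrays per label this check cannot exclude one. Alternatives were quantile normalization, median centring, normexp, no filter or a stricter filter on dim probes, the deposited values, a replicate block, the slide row as a block, array weights and leaving out each array.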

Additional observations from a re-analysis of the deposited data

Results flagged for a closer look

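Among 96 sets of 4 arrays examined, 4 held 1 array that stood far from the other 3 by Dixon's ratio of the gap to the range. Chance alone flags about 1 set in 20, or 4.8 of 96. In Ptpn5 it was control array 1, at -1.12 against -1.43 to -1.39 in the other control arrays (ratio 0.857). In Dusp1 it was control array 2, at -2.94 against -2.50 to -2.42 (ratio 0.836). In Dusp6 it was PMSG array 4, at 1.35 against 1.81 to 1.85 (ratio 0.918). In Hsd17b7, one of the genes with a profile like that of Ptpn5, it was control array 2, at 2.76 against 2.13 to 2.18 (ratio 0.909). In each of the 4 genes the distant array stayed on its own label's side of the other label.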

How the results depend on the processing

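The number of the 9 phosphatase genes past the threshold was 7 with all arrays and ranged from 5 to 7 over the alternatives; the calls lost were those of Dusp10 and, under normexp, Ptpn7. The count of differing probes was 8658; its lowest value was 6552, without control array 4, and its highest 11382, without PMSG array 4. A replicate block gave 7346 probes and 36 pathway genes, 8 higher and 28 lower, against 44. With the block, Dusp15, Ptpn3, Sos2 and Cd68 were not past the threshold (limma adjusted p = 0.0568, 0.0559, 0.0863 and 0.0835); in the check of the pairing, 1 of 4 numbers correlated best with its own. Of the 5 genes most like Ptpn5, 3 remained under quantile normalization, 0 under normexp and 3 to 5 with 1 array left out. The number of the 9 genes with a larger SD in PMSG arrays was 5, became 8 under normexp and ranged from 2 to 7 with 1 array left out. The cause of these shifts was not tested. Signal near background limits Dusp4, Dusp10, Ptpn5 in PMSG arrays and the dimmer Ptprr probe in control arrays.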
